A study of Mus musculus with 4 samples.

Results

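The genes described are 35 mouse genes of glucose breakdown and of the response to low oxygen, chosen by name: 19 encode the glucose transporter, the enzymes from hexokinase to lactate dehydrogenase, the lactate exporter and a pyruvate dehydrogenase kinase, and 16 are Hif1a and genes that hypoxia is known to induce. The series holds 4 RNA libraries of the mouse macrophage line RAW264.7: in 2 the macrophages had been cocultured with the mouse colon carcinoma line CT26, and in 2 they had not (mock). No genetic change is named for either line. Per the labels, DMEM served for RAW264.7 and RPMI1640 for CT26, while the duration of coculture, its medium and whether or how the CT26 cells were parted from the macrophages are not stated. Coculture 1 and mock 1 stand in a first deposited table (pair 1), coculture 2 and mock 2 in a second (pair 2). Of the 35 genes, 34 were listed under their own name in both tables, among 22554 names found once in each, and 32 passed the filter of at least 1 FPKM (fragments per kilobase of gene length and per unit of library total) in at least 2 of the 4 libraries, which 10202 genes passed. Egln3 and P4ha2 were below it. Ero1l stood in the second table under that name and in the first as Ero1a, the symbol RefSeq gives with Ero1l as a synonym, so its values are given apart from the test over all genes.

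Glycolysis turns glucose into pyruvate in the cytosol, and pyruvate either enters the mitochondrion or is reduced to lactate and exported. HIF-1 alpha is a transcription factor subunit that prolyl hydroxylases of the EGLN family mark for destruction when oxygen is plentiful. When oxygen falls, or when inflammatory signals raise Hif1a transcription in macrophages, HIF-1 binds promoters at a short core motif and induces most enzymes of glycolysis together with genes of mitophagy, vascular tone and lipid storage.

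None of the 32 genes tested passed the threshold between cocultured and mock macrophages, against 0.127% of all genes tested called higher and 0% called lower. With 2 pairs the test leaves 1 residual degree of freedom and can miss large differences, so no call does not mean no change. The wider gaps lay between the replicates. Hilpda, Hif1a and Slc2a1 were higher in coculture in both pairs, by 0.62, 0.56 and 0.72 on the log2(FPKM + 1) scale, and Bnip3l, Pdk1 and Pfkm were lower in both, by 0.38, 0.35 and 0.34 on that scale. These are means over 2 pairs, and each value after ± below is the standard error as limma moderates it. In contrast, 30 of the 32 were higher in mock 2 than in mock 1, against 54.1% of all genes tested, and 30 of the 32 were higher in coculture 2 than in coculture 1, against 56.8%, with Adm at 17.8 FPKM in mock 2 and 0.424 FPKM in mock 1 as the widest gap.

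The libraries carried an estimated 12200000 to 16200000 reads. This took the most common product of FPKM and GENCODE M21 exon length in a library as 1 read. Of the low FPKM values, 37.5% to 40.5% per library then came close to a whole number of reads, so the counts behind a gene are approximate. Of 12 macrophage markers, 11 reached 1 FPKM in each library, and only Mertk did not. The summed level of these markers was 10600 and 13600 FPKM in coculture 1 and 2, against 10200 and 6690 FPKM in mock 1 and 2, and Lyz2, the lysozyme gene, made up most of it. Of 8 epithelial markers for CT26 cells none reached 1 FPKM in any library, with sums of 0.166 and 0.045 FPKM in coculture 1 and 2 and 0.143 and 0 FPKM in mock 1 and 2, and Epcam, Krt18 and Cldn4 stood at 0 throughout. Of 10 mesenchymal markers only Tagln passed 1 FPKM, and the sums were 1.93 and 1.37 FPKM in coculture 1 and 2, against 2.61 and 1.73 FPKM in mock 1 and 2. Without Lyz2 the macrophage sum was 4060.2 and 3267.7 FPKM in coculture 1 and 2, against 3131.5 and 3162.5 FPKM in mock 1 and 2. The part of these levels in the differences below was not tested.

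The promoters of genes with the wider gaps are shown so that the motif counts can be read against the letters. They are the 250 bases before the annotated start of the 3 genes with the widest gap between the mock libraries (Adm, Bnip3 and Ankrd37) and of 3 genes higher in coculture in both pairs (Slc2a1, Hilpda and Ero1l), from RefSeq on GRCm38.p6, written 5′ to 3′ on the gene's strand. Capitals mark the HIF core motif ACGTG or GCGTG on either strand, and the palindrome CACGTG counts as a match on each strand.
Adm (chr7:110627407-110627656, plus strand): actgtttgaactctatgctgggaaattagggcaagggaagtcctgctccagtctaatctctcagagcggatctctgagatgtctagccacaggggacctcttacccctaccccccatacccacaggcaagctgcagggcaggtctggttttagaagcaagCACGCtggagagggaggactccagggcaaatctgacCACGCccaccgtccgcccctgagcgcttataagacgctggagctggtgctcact
Ankrd37 (chr8:45999851-46000100, minus strand): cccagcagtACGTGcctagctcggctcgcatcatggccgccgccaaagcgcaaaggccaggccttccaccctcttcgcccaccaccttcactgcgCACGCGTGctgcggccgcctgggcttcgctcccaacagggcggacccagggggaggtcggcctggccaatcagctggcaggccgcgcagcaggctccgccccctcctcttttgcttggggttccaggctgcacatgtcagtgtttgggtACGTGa
Bnip3 (chr7:138909507-138909756, minus strand): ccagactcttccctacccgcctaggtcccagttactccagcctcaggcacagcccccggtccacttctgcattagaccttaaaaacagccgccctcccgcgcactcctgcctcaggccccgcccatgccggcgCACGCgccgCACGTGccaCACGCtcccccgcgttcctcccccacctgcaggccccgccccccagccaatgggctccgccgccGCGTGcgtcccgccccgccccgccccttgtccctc
Slc2a1 (chr4:119108495-119108744, plus strand): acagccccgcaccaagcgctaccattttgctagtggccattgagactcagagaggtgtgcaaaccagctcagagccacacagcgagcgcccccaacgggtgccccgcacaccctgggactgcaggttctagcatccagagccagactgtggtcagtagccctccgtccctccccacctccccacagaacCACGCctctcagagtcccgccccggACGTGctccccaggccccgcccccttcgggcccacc
Hilpda, the downstream of its 2 starts (chr6:29272376-29272625, plus strand): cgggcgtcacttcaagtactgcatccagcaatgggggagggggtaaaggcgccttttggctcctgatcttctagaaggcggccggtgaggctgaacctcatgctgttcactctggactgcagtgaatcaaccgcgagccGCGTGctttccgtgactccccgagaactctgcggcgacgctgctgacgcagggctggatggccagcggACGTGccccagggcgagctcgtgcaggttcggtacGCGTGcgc
Ero1l (chr14:45318573-45318822, minus strand): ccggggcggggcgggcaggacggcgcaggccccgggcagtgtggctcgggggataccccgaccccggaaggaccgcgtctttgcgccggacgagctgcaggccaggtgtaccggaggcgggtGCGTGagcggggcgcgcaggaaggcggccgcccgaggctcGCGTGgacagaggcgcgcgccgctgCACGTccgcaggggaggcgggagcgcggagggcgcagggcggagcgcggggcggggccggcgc

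Adm held 2 matches in this window, both to GCGTG, while Bnip3 held 5, Ankrd37 held 4, Ero1l and Hilpda 3 each and Slc2a1 held 2. The window of the upstream Hilpda start, not shown, held 0 matches to either motif. Of the 33 genes with an entry, 31 (93.9%) held at least 1 of the 2 motifs in the window of at least 1 start, against 41.5% of all 27025 genes in the promoter table and 63.7% of the genes tested here. ACGTG alone was found for 21 of the 33 (63.6%), against 18.5% of all genes and 26.4% of the genes tested. GCGTG was found for 24 of the 33 (72.7%), against 30.9% of all genes and 52% of the genes tested. The 33 genes had 52 windows, against 32851 for all 27025 genes and 10487 for the 8249 genes tested that had an entry. They thus had more starts per gene, which raises a share counted by gene, and some of their windows overlap. Counted by start site, either motif was in 42 of the 52 windows (80.8%), against 38.6% of all windows and 57.5% of those of genes tested. ACGTG was in 24 of the 52 (46.2%), against 16.6% of all windows and 22.7% of those of genes tested. GCGTG was in 30 of the 52 (57.7%), against 28.2% of all windows and 46.1% of those of genes tested. The 19 glycolysis genes held ACGTG in 52.6% and the 14 hypoxia genes in 78.6%. A match is a stretch of letters and not a measured binding site, these genes are known for such motifs, and base composition was not matched. Ndrg1 and Bnip3l are named here without a sequence.

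**Figure D1:**
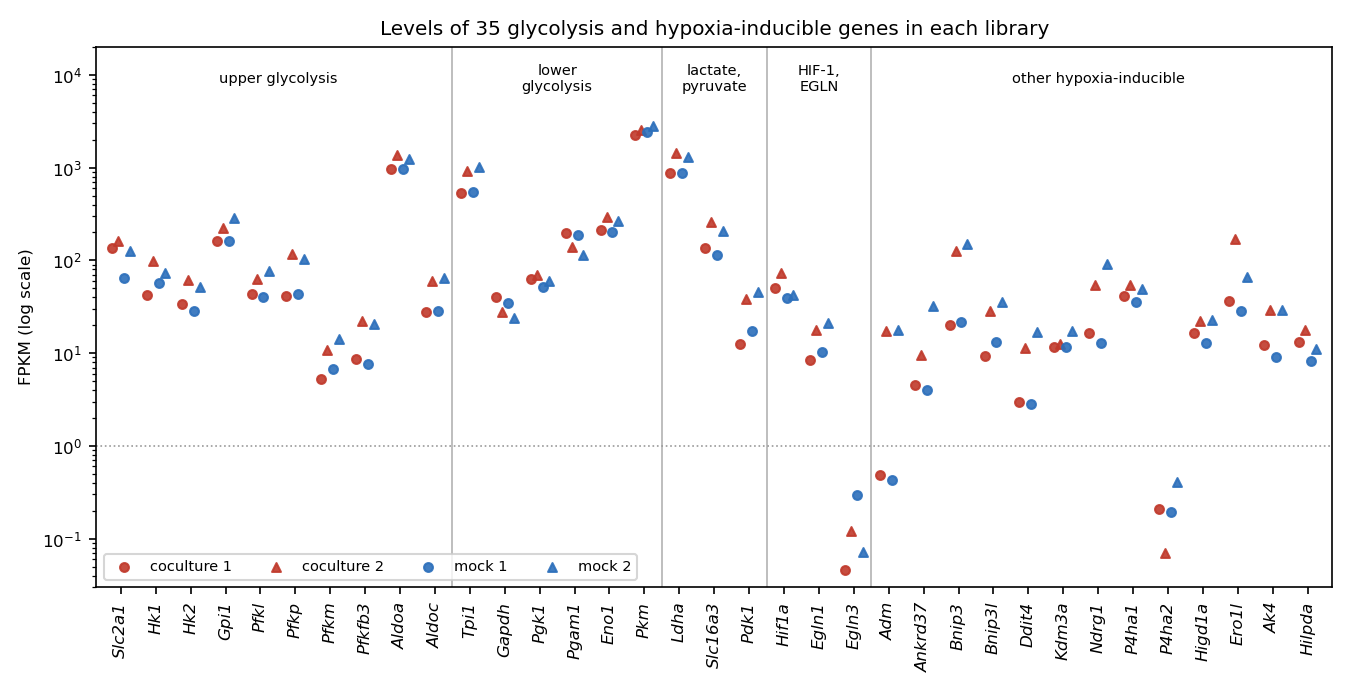
FPKM on a log scale (vertical) of the 35 genes (horizontal, grouped by role) in each library, with red for coculture, blue for mock, circles for replicate 1 and triangles for replicate 2; the dotted line marks 1 FPKM. Levels run from Pkm at 2237 to 2787 FPKM down to Egln3 and P4ha2, which stayed under 1 FPKM, and for most genes the triangles lie above the circles in both colours.

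Between cocultured and mock macrophages, limma with the pair as a block called none of the 32 genes (Benjamini-Hochberg adjusted over all 10202 genes), with a smallest adjusted p of 0.209 for Hilpda. Over all genes tested it called 13 higher and 0 lower (85 and 18 after median centring), while 537 were higher and 964 lower by limma's p of 0.05 left unadjusted. By that unadjusted limma p, 3 of the 32 were higher (Hilpda, Hif1a and Slc2a1) and 2 lower (Bnip3l and Pdk1), and without the pair block 0 of them passed it. The median difference was 0.04, against -0.07 over all genes tested, and it lay at 0.06 in pair 1 and -0.02 in pair 2. After rescaling to a common total and after quantile normalization this median was -0.01 and -0.05. Of the 32 genes, 13 were higher in coculture in both pairs, against 21.5% of all genes, and 8 were lower in both, against 42.2%. The signs differed between the pairs for 11, against 35.8% of all genes. No gene of the 32 differed 2-fold in both pairs, against 1.02% of all genes for higher and 0.353% for lower. Both coculture libraries lay above both mock libraries for 4 genes (Slc2a1, Hif1a, Hilpda and Pgk1), against 10.3% of all genes, and below them for 0, against 21.5%; that count sets values of 2 tables side by side. In bulk RNA a smaller number of cells of a type and less RNA per cell cannot be told apart.

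**Figure D2:**
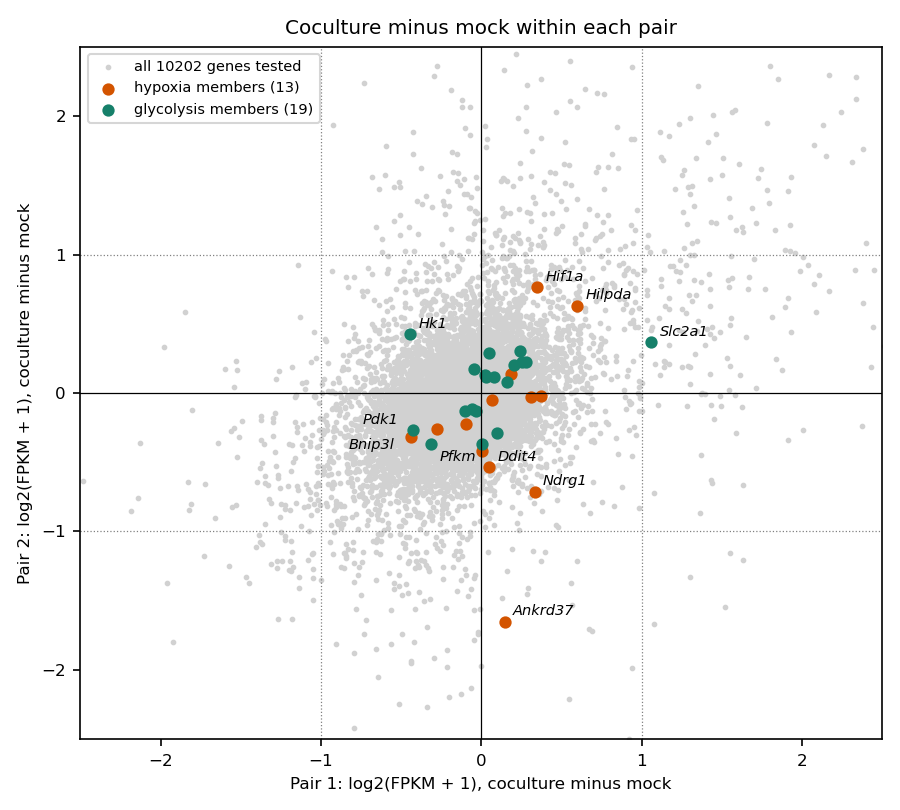
Difference of coculture from mock (log2 of FPKM + 1) in pair 1 (horizontal) and pair 2 (vertical) for the 13 hypoxia genes (orange) and 19 glycolysis genes (green) tested, over all 10202 genes (grey; 92 lie outside the axes), with dotted lines at a difference of 1 either way. Slc2a1, Hif1a and Hilpda lie to the upper right, Ankrd37 and Ndrg1 are lower in coculture in pair 2 only, and no labelled gene passes 1 in both pairs.

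Glucose enters through Slc2a1, which encodes the transporter GLUT1. It stood at 136 and 164 FPKM in coculture 1 and 2, against 64.6 and 126 FPKM in mock 1 and 2. Both coculture libraries were above both mock libraries, and the gap was wider in pair 1, where mock 1 was the lowest of the 4. The difference was 1.06 in pair 1 and 0.37 in pair 2, a mean of 0.72 ± 0.20 (limma adjusted p = 0.257). Hk1 and Hk2 encode hexokinases, which trap glucose in the cell. Hk1 went opposite ways, at 41.8 and 99.7 FPKM in coculture 1 and 2, against 57.3 and 73.8 FPKM in mock 1 and 2, for differences of -0.44 and 0.43. Hk2 was slightly higher in coculture in each pair, at 33.9 and 61.1 FPKM, against 28.3 and 52.2 FPKM in mock 1 and 2.

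The next steps isomerise and phosphorylate the sugar. Gpi1, the glucose phosphate isomerase gene, was level in pair 1, at 161 FPKM in both coculture 1 and mock 1, and lower in pair 2, at 222 FPKM in coculture 2 and 286 FPKM in mock 2. The phosphofructokinase genes Pfkl, Pfkp and Pfkm encode subunits of the enzyme of the committed step, and their differences were -0.10 ± 0.14 for Pfkl, 0.07 ± 0.12 for Pfkp and -0.34 ± 0.15 for Pfkm. Pfkm was the scarcest of them per kilobase and the one lower in both pairs, at 5.25 and 10.7 FPKM in coculture 1 and 2, against 6.77 and 14.2 FPKM in mock 1 and 2 (limma adjusted p = 0.381). Pfkfb3 encodes the enzyme that makes the allosteric activator of phosphofructokinase. It stood at 8.75 and 22.0 FPKM in coculture 1 and 2, against 7.71 and 20.7 FPKM in mock 1 and 2, so that the replicates were further apart than the conditions. Of the aldolase genes, Aldoa stood at 978 and 1360.0 FPKM in coculture 1 and 2, against 963 and 1241 FPKM in mock 1 and 2 (a difference of 0.08, or -0.079 after quantile normalization), and Aldoc at 27.6 and 60.0 FPKM in coculture 1 and 2, against 28.7 and 65.1 FPKM in mock 1 and 2. Across these 10 genes of glucose entry and upper glycolysis, 4 were higher in coculture in both pairs and 2 lower, with a median of 0.03. The shares over all genes tested were 21.5% and 42.2%.

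The lower glycolysis genes, which act from triose phosphate to pyruvate and recover ATP, had differences between -0.12 and 0.25. Tpi1 (triose phosphate isomerase) stood at 539 and 921 FPKM in coculture 1 and 2, against 551 and 1007 FPKM in mock 1 and 2. Pkm (pyruvate kinase) was the most abundant of the 35 genes per kilobase, at 2237 and 2545 FPKM in coculture 1 and 2, against 2402 and 2787 FPKM in mock 1 and 2, a difference of -0.12 ± 0.18. Both were slightly lower in coculture in each pair. Gapdh, Pgk1, Pgam1 and Eno1, whose enzymes act between them, were higher in both pairs by mean differences of 0.20, 0.25, 0.17 and 0.10. Gapdh, often used as a reference gene, stood at 39.9 and 27.8 FPKM in coculture 1 and 2, against 34.5 and 24.03 FPKM in mock 1 and 2, and Pgk1 at 62.8 and 70.0 FPKM in coculture 1 and 2, against 51.6 and 59.6 FPKM in mock 1 and 2. Pgam1 stood at 196 and 139 FPKM in coculture 1 and 2, against 189.8 and 114 FPKM in mock 1 and 2, and Eno1 at 214 and 292 FPKM in coculture 1 and 2, against 203 and 269 FPKM in mock 1 and 2. The levels of 5 of these genes are uncertain because copies elsewhere in the genome share their sequence: 53.9% of the distinct 50-base stretches of Pgk1 transcripts recur in transcripts of other genes in GENCODE M21, as do 36.2% for Pgam1, 26.0% for Eno1, 25.8% for Pkm and 25.1% for Gapdh, the last across 223 other genes of which 209 are pseudogenes. The treatment of reads that map to several places is not stated.

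Lactate is made by lactate dehydrogenase A and leaves through the transporter MCT4, encoded by Slc16a3. Ldha stood at 886 and 1428 FPKM in coculture 1 and 2, against 867 and 1317 FPKM in mock 1 and 2, a difference of 0.07 ± 0.15, or -0.075 after quantile normalization. Slc16a3 stood at 136 and 257 FPKM in coculture 1 and 2, against 115 and 208 FPKM in mock 1 and 2, a difference of 0.27 ± 0.11 that was higher in both pairs (limma adjusted p = 0.370). Pdk1 encodes a pyruvate dehydrogenase kinase. It was lower in both pairs, at 12.7 and 38.2 FPKM in coculture 1 and 2, against 17.4 and 46.2 FPKM in mock 1 and 2. Its difference was -0.35 ± 0.12 (limma adjusted p = 0.328). Across the 19 glycolysis genes, 10 were higher in both pairs and 5 lower, against 21.5% and 42.2% of all genes tested. Their median lay at 0.03 in pair 1 and at 0.12 in pair 2.

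Hif1a stood at 50.7 and 73.4 FPKM in coculture 1 and 2, against 39.7 and 42.7 FPKM in mock 1 and 2. The mock libraries were close together, and both coculture libraries were above them. The differences of 0.35 and 0.77 gave a mean of 0.56 ± 0.15 (limma adjusted p = 0.248). Egln1, the main prolyl hydroxylase gene for HIF-1 alpha, was lower in both pairs, at 8.41 and 17.6 FPKM in coculture 1 and 2, against 10.4 and 21.2 FPKM in mock 1 and 2, a difference of -0.27 ± 0.13. Egln3, a hydroxylase gene that hypoxia induces in many cells, did not exceed 0.292 FPKM in any library.

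Hilpda had the smallest adjusted p of the 32 genes. It encodes a lipid droplet protein that inhibits triglyceride breakdown. It stood at 13.1 and 17.6 FPKM in coculture 1 and 2, against 8.30 and 11.0 FPKM in mock 1 and 2. The difference was 0.60 in pair 1 and 0.63 in pair 2, a mean of 0.62 ± 0.14 (limma adjusted p = 0.209), and no other of the 32 passed 1.5-fold one way in each pair. Ero1l encodes an oxidase that forms disulphide bonds in the endoplasmic reticulum. It stood at 36.9 and 170.4 FPKM in coculture 1 and 2, against 28.4 and 65.5 FPKM in mock 1 and 2, with differences of 0.37 and 1.37. Matched across the 2 symbols and added to the fit over all genes, a step chosen after the data were seen, it differed by 0.87 ± 0.26 (limma adjusted p = 0.284).

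Bnip3l and Bnip3 encode receptors of mitophagy, the removal of mitochondria. Bnip3l stood at 9.40 and 28.5 FPKM in coculture 1 and 2, against 13.1 and 35.7 FPKM in mock 1 and 2, a difference of -0.38 ± 0.13 (limma adjusted p = 0.312). Bnip3 stood at 20.04 and 127 FPKM in coculture 1 and 2, against 21.5 and 149 FPKM in mock 1 and 2, a difference of -0.16 ± 0.11. Coculture was lower than mock in each pair for both genes, but the replicates of each group were further apart than coculture and mock. Bnip3 shares 47.2% of its 50-base stretches with other transcripts and Bnip3l 20.8%, while Higd1a, Gpi1 and Ak4 share 24.4%, 15.8% and 10.2% and Ankrd37 a share between those of Higd1a and Gpi1.

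Some hypoxia genes differed in pair 2 alone or in opposite ways. Ankrd37, an ankyrin repeat gene induced by hypoxia, stood at 4.57 and 9.59 FPKM in coculture 1 and 2, against 4.03 and 32.3 FPKM in mock 1 and 2. Mock 2 was far above the other 3 libraries, and its differences were 0.15 in pair 1 and -1.65 in pair 2. Ndrg1, a stress-responsive gene, stood at 16.5 and 54.8 FPKM in coculture 1 and 2, against 12.9 and 90.4 FPKM in mock 1 and 2, for differences of 0.33 and -0.71. Ddit4, which encodes an inhibitor of mTORC1 signalling, stood at 2.999 and 11.3 FPKM in coculture 1 and 2, against 2.86 and 16.8 FPKM in mock 1 and 2. In these 3 genes mock 2 was the highest of the 4 libraries. For Ankrd37, Ndrg1 and Ddit4 limma gave adjusted p-values of 0.5, 0.772 and 0.624.

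The remaining hypoxia genes had differences between -0.21 and 0.18. Kdm3a, a histone demethylase gene, stood at 11.7 and 12.6 FPKM in coculture 1 and 2, against 11.6 and 17.2 FPKM in mock 1 and 2. P4ha1, which encodes the catalytic subunit of collagen prolyl hydroxylase, stood at 41.1 and 54.7 FPKM in coculture 1 and 2, against 36.0 and 49.6 FPKM in mock 1 and 2. Its relative P4ha2 did not exceed 0.406 FPKM. Ak4, a mitochondrial adenylate kinase gene, and Higd1a, a gene of a small mitochondrial membrane protein, were higher in coculture in pair 1 by 0.37 and 0.31 and near level in pair 2, at -0.02 and -0.03. Ak4 stood at 12.2 and 28.9 FPKM in coculture 1 and 2, against 9.20 and 29.4 FPKM in mock 1 and 2. Over the 13 hypoxia genes tested, 3 were higher in both pairs, 3 lower in both and 7 of opposite sign. The shares over all genes tested were 21.5%, 42.2% and 35.8%. The median of the 13 lay at 0.15 in pair 1 and at -0.23 in pair 2.

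Levels in the replicates were then set side by side. The mock libraries stand in separate tables with 1 library each, so no test was made, and a difference of library, culture, gene annotation or scaling cannot be told apart there. Over all genes tested the median of mock 2 minus mock 1 was 0.04 on the log2(FPKM + 1) scale and that of coculture 2 minus coculture 1 was 0.08. For the 32 genes those medians were 0.87 and 0.80. With 2-fold taken as a difference of 1 on that scale, here and in the counts of 2-fold differences elsewhere, 11 of the 32 were higher in mock 2, against 3.71% of all genes, and 0 were 2-fold lower, against 4.36%. In coculture, 11 were 2-fold higher in replicate 2 on that scale, against 6.01% of all genes. Both libraries of replicate 2 were at least 2-fold higher for 10 genes on that scale, against 2.16% of all genes. As plain FPKM ratios, Pfkm (2.09 in mock and 2.04 in coculture) and Egln1 (2.04 and 2.09) also passed 2, and Ankrd37 did in coculture (2.10). The members were chosen with results of these data in view, so these counts describe them and are no test.

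**Figure D3:**
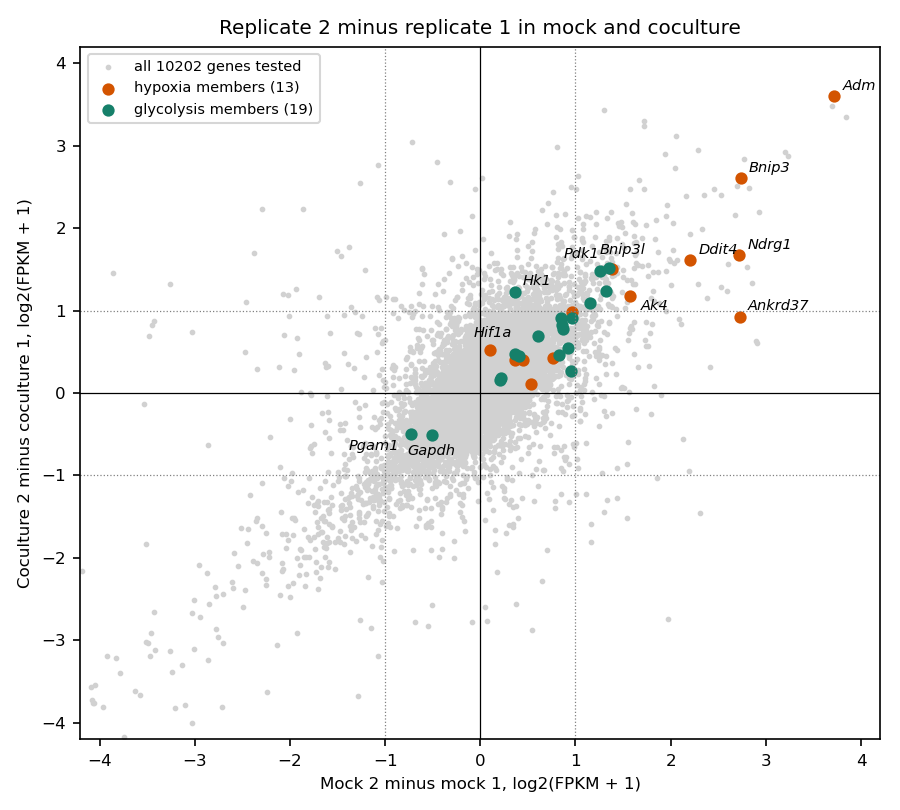
Replicate 2 minus replicate 1 on the log2(FPKM + 1) scale in mock (horizontal) and coculture (vertical), for the 13 hypoxia genes (orange) and 19 glycolysis genes (green) tested, over all 10202 genes (grey; 43 lie outside the axes), with dotted lines at a difference of 1 either way. Of the 32 genes 30 lie to the upper right of the origin, with Adm the furthest out, and Gapdh and Pgam1 lie to the lower left.

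The gap was widest in hypoxia genes. Adm, which encodes the vasodilator peptide adrenomedullin, had 17.8 FPKM in mock 2 and 0.424 FPKM in mock 1, a ratio of 41.9, and 17.1 FPKM in coculture 2 and 0.491 FPKM in coculture 1, a ratio of 34.9. That is about 452 and 338 reads in mock 2 and coculture 2 and about 11 and 13 reads in mock 1 and coculture 1, with GENCODE M21 exon lengths. Within each pair Adm was level, at differences of 0.07 and -0.05. On the log2(FPKM + 1) scale Ankrd37 was higher by 2.72 in mock 2 than in mock 1 and by 0.93 in coculture 2 than in coculture 1. The same 2 gaps, mock and then coculture, were 2.72 and 1.67 for Ndrg1, 2.73 and 2.604 for Bnip3, and 2.20 and 1.62 for Ddit4. Ak4 and Bnip3l followed, at 1.57 and 1.18 for Ak4 and 1.38 and 1.51 for Bnip3l. For Ankrd37, Ndrg1 and Ddit4 the gap was narrower in coculture than in mock, while for Adm and Bnip3 it was nearly as wide, and with 1 library of each kind per table the change of the gap was not tested.

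**Figure D4:**
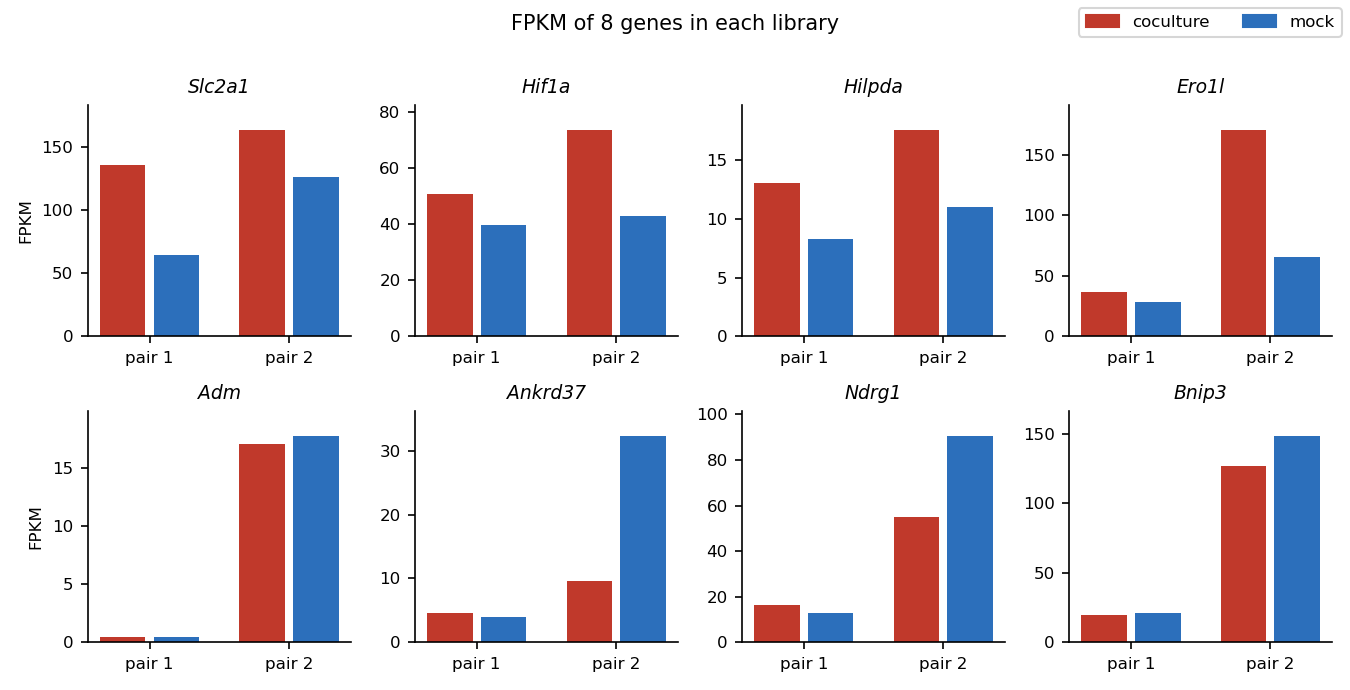
FPKM in each library (bars from 0; red for coculture, blue for mock, in pair 1 and pair 2) of Slc2a1, Hif1a, Hilpda and Ero1l in the upper row and Adm, Ankrd37, Ndrg1 and Bnip3 in the lower. In the upper row coculture stands above mock in each pair, and in the lower row the bars of pair 2 are the higher ones, with mock 2 the highest.

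Among the glycolysis genes the gap was smaller and ran through most steps. Pdk1 was 2.65-fold higher in mock 2 than in mock 1 and 3.01-fold higher in coculture 2 than in coculture 1. Pfkfb3 was 2.69-fold and 2.51-fold higher, Pfkp 2.43-fold and 2.84-fold, and Aldoc 2.27-fold and 2.18-fold. Pfkp had 104.6 FPKM in mock 2 and 43.0 FPKM in mock 1, and 118 FPKM in coculture 2 and 41.7 FPKM in coculture 1. Slc2a1 was 1.95-fold higher in mock 2 than in mock 1, Hk2 1.85-fold, Tpi1 1.83-fold and Ldha 1.52-fold. Pkm was 1.16-fold higher, and Hif1a itself 1.08-fold, the nearest of the hypoxia genes to level. Gapdh at 0.696-fold and Pgam1 at 0.601-fold were the 2 genes lower in mock 2, and both were lower in coculture 2 as well, at 0.698-fold and 0.709-fold of coculture 1. By role, the median of mock 2 minus mock 1 was 0.94 for glucose entry and upper glycolysis, 0.21 for lower glycolysis and 1.57 for the hypoxia genes other than Hif1a and the hydroxylases.

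Other genes of these pathways, on lists that hold none of the 35, were counted the same way. Of 104 such genes 75 were tested, and limma called 0 of them in either direction, while 4 were higher in coculture and 6 lower when p was left unadjusted at 0.05. Over all 10202 genes tested limma called 13 higher and 0 lower, and 537 were higher and 964 lower by its unadjusted p. Vegfa, a vascular growth factor gene induced by hypoxia, stood at 18.6 and 61.7 FPKM in coculture 1 and 2, against 5.45 and 18.9 FPKM in mock 1 and 2, a difference of 1.63 ± 0.12 (limma adjusted p = 0.0544). Cited2, whose product competes with HIF-1 alpha for its coactivator, stood at 539 and 830.0 FPKM in coculture 1 and 2, against 321 and 377 FPKM in mock 1 and 2, a difference of 0.94 ± 0.16 (limma adjusted p = 0.150). Lower in coculture in both pairs were Ppfia4, Bhlhe41 and the bifunctional sugar phosphate enzyme gene Pfkfb2, by differences of -1.25, -1.24 and -0.56, with limma adjusted p-values of 0.254, 0.240 and 0.284.

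Between the mock libraries, those lists had smaller medians than the 0.87 of the 32 genes. Of 25 other hypoxia-inducible genes tested, 20 were higher in mock 2, against 54.1% of all genes tested, with a median of 0.49. Of the 25, 6 were at least 2-fold higher, against 3.71% of all genes, and 3 at least 2-fold lower, against 4.36%. Of 17 other glycolysis genes tested, 12 were higher and 4 at least 2-fold higher, against the same 54.1% and 3.71%, with a median of 0.34. Eno2, an enolase gene, had 11.8 FPKM in mock 2 and 1.51 FPKM in mock 1, and 13.1 FPKM in coculture 2 and 1.66 FPKM in coculture 1. Hmox1, the heme oxygenase gene that hypoxia and oxidants induce, went the other way, at 101 FPKM in mock 2 and 784 FPKM in mock 1, and at 113 FPKM in coculture 2 and 749.9 FPKM in coculture 1. The pyruvate dehydrogenase and lactate transport list, with 13 tested, had a median of 0.03, and the pentose phosphate list, with 10 tested, had one of -0.06.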

How the data were processed

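Messenger RNA libraries (VAHTS mRNA-seq v2 kit) were deposited by the authors as FPKM in 2 tables, 1 per replicate number. The tools, per the submitters' processing notes, were featureCounts, Subread and Trim Galore, and the build named is hg38, which is human although the symbols are mouse. Versions, annotation, gene lengths, totals and the handling of reads that map to several places are not stated there. The tables have 23427 and 25239 rows, the second rounded to 3 decimals. In the first, 23 unnamed rows (at most 5.25e-06% of FPKM) and 106 names on 287 rows (at most 1.07%) were left out.

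FPKM were used as deposited, as log2(FPKM + 1), which understates the change of low genes. The comparison of coculture with mock used limma 3.58.1 (under R 4.3.3, trended prior variance, two-sided, Benjamini-Hochberg over 10202 genes, threshold 0.05) with the pair as a block, since the tables may have been normalized separately. Deviations from the group means correlated at 0.76 across genes within a pair. Residual degrees of freedom were 1, with 3.43 from the prior. Whether replicates were separate cultures is not stated, so the p-values cover the spread of these libraries alone, which may be technical. Values in every library are printed by rule for genes past the test, at 0.3 or more in both pairs (one way or opposite), or 2-fold apart between the mocks, for Hif1a, Slc2a1, Gapdh, Pkm and Ldha in any case, and by role for others. Genes outside the 35 are named where their smaller within-pair difference was among the 6 largest, or their gap between mocks among the 4 largest, at a mean of at least 2 FPKM; 2 genes this rule names are not reported here. The members and lists were chosen with earlier results of these data known. Depth was estimated from GENCODE M21 exon lengths, and shared 50-base stretches from its transcripts. Alternatives covered pseudocounts, filters, scaling, the pair block, the prior variance and leaving out each library.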

Additional observations from a re-analysis of the deposited data

How the results depend on the processing

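None of the 32 genes was called under any alternative run, and none differed 2-fold in both pairs under the pseudocounts, filters and scalings tried; at a 1.5-fold bound 1 did (Hilpda). The number of genes called overall was less stable: 13 became 22 with a pseudocount of 0.1, 26 with at least 5 FPKM, 26 after rescaling to a common total, 103 after median centring, 46 after quantile normalization, 1 with no trended prior variance, 1 with no replicate block, and 0 with no filter (1514 at an unadjusted p under 0.05) or without any single library, unblocked (176 to 523 at an unadjusted p under 0.05). The calls were 85 higher and 18 lower after centring, against 13 and 0. The median difference of the 32 genes was 0.10 after centring and -0.047 after quantile normalization. Leaving out a library needs a fit with no pair block, which sets the tables side by side, and that median then ran from -0.49 to 0.39. The median of mock 2 minus mock 1 stayed between 0.85 and 0.91 under the other pseudocounts, filters and scalings.

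Single genes kept their sign in 284 of 288 other results. The filters, the pair block and the prior variance leave a gene's difference unchanged in this balanced design. Agreement under those settings was therefore fixed in advance, and a sign could change only under the pseudocounts and scalings. The exceptions were Adm at -0.026 after rescaling, Hk1 at 0.058 after centring, and Aldoa at -0.079 and Ldha at -0.075 after quantile normalization. Without 1 library, unblocked, 27 of the 32 changed sign in at least 1 fit, while Hif1a, Hilpda, Slc2a1 and Pgk1 stayed higher and Pkm lower in coculture in all 4, at 0.29 to 0.82 for Hif1a, 0.42 to 0.82 for Hilpda, 0.24 to 1.19 for Slc2a1, 0.15 to 0.36 for Pgk1 and -0.22 to -0.0096 for Pkm. The low ends were without mock 1 for Slc2a1 and Pgk1, without coculture 2 for Hif1a and Hilpda and, nearest to 0, without mock 2 for Pkm. For Hif1a, Hilpda, Slc2a1 and Pgk1 both coculture libraries lay above both mock libraries. Their sign in these fits was fixed by that order, so it restates that order and adds no support. Such a fit holds 2 libraries of one table and 1 of the other, so part of the gap between replicates enters its difference. The cause of that gap was not tested. Differences in upper glycolysis ran from -0.16 to 0.31 for Aldoa, -0.66 to 0.49 for Aldoc, -0.59 to 0.24 for Gpi1, -0.62 to 0.61 for Hk1, -0.19 to 0.67 for Hk2, -0.54 to 0.78 for Pfkfb3, -0.56 to 0.37 for Pfkl, -0.83 to 0.14 for Pfkm and -0.68 to 0.81 for Pfkp. In lower glycolysis they ran from -0.13 to 0.32 for Eno1, -0.050 to 0.46 for Gapdh, -0.20 to 0.53 for Pgam1 and -0.51 to 0.35 for Tpi1. For lactate and pyruvate genes the range was -0.27 to 0.42 for Ldha, -1.11 to 0.41 for Pdk1 and -0.18 to 0.73 for Slc16a3. Among HIF regulators it was -0.76 to 0.22 for Egln1. Among other hypoxia genes the ranges were -1.85 to 1.87 for Adm, -0.61 to 0.96 for Ak4, -2.12 to 0.61 for Ankrd37, -1.53 to 1.21 for Bnip3, -1.13 to 0.38 for Bnip3l, -1.34 to 0.86 for Ddit4, -0.24 to 0.53 for Higd1a, -0.47 to 0.059 for Kdm3a, -1.55 to 1.17 for Ndrg1 and -0.065 to 0.39 for P4ha1.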

Other observations

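Pentose phosphate genes, which branch from glycolysis to make NADPH and ribose, were mostly a little lower in coculture. Of 10 tested, 7 were lower in both pairs and 2 higher in both, against 42.2% and 21.5% of all genes. Their median difference was -0.22 (-0.19 in pair 1 and -0.22 in pair 2), against -0.07 over all genes tested (-0.09 and -0.06). In limma 0 were called, and 1 was lower at an unadjusted p under 0.05, against 964 of all 10202 genes tested. The pyruvate dehydrogenase and lactate transport list lay at a median of 0.01, with 3 of 13 higher and 5 lower in both pairs.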
